A study of Sus scrofa with 16 samples.

Results

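The genes examined were 7 genes of calcium release and uptake at the sarcoplasmic reticulum, the internal calcium store of muscle fibres. They were the calcium pumps ATP2A1 and ATP2A2, the release channels RYR1 and RYR3, the store proteins CASQ2 and HRC, and the calcium sensor S100A1. Members were all probe sets whose only gene symbol in the platform annotation was 1 of these 7. Where a gene had several probe sets they are numbered here by their mean level, set 1 being the brightest and standing for the gene. There were 15 such probe sets among the 24123 of the array, and 11 of the 15, covering all 7 genes, passed the filter on low values (a log2 value at or above 4 in at least 4 of 16 arrays). The filter keeps a probe set that is high in only 1 muscle. RYR3 passed mainly through its diaphragm values, with 8 diaphragm but 2 psoas arrays at or above 4. CASQ2 had 8 diaphragm and 4 psoas arrays at or above 4.

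Expression was measured on Affymetrix porcine arrays in psoas major, a muscle beside the lumbar spine, and in diaphragm, the main breathing muscle. The 16 arrays came from 8 Iberian pigs, a fat Mediterranean breed, at 211 days of age, with 1 array per muscle and animal. The groups were psoas of restricted animals, psoas of animals on the high feeding level, diaphragm of restricted animals and diaphragm of animals on the high feeding level, with 4 arrays each. Restriction was 20%, and all animals had the same pelleted diet beforehand. Animals 2, 3, 5 and 8 were restricted and animals 1, 4, 6 and 7 were on the high feeding level. Animals 5 to 8 were female and animals 1 to 4 male. The labels name neither the start of the restriction nor whether males were castrated.

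When a muscle fibre is excited, voltage sensors in the surface membrane open ryanodine receptors in the membrane of the store, and the released calcium switches on the contractile filaments. SERCA pumps then return the calcium, and proteins in the lumen hold it at low affinity until the next release. Fast fibres carry mainly the pump ATP2A1, whereas slow fibres and heart carry ATP2A2. The store protein CASQ2 is found in slow fibres and heart. RYR1 is the release channel of every skeletal muscle fibre, and RYR3 is a further channel that in adult mammals is known chiefly from the diaphragm and a few other muscles.

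Of the 7 genes, ATP2A1 and RYR1 were higher in psoas, and ATP2A2, CASQ2, RYR3 and S100A1 were lower in psoas than in diaphragm. HRC did not pass the test. Calls were made at a limma adjusted p under 0.05, and by that rule 27.0% of all tested probe sets differed between the muscles, 14.6% higher and 12.4% lower in psoas. Among the member probe sets 7 of the 11 tested were called. The median log2 difference, psoas minus diaphragm, was -0.28 over the 7 genes and 0.04 over all 4571 genes tested, of which 793 were higher and 556 lower in psoas. The size of the difference varied widely among the members, from 12.4-fold for RYR3 to 1.19-fold for RYR1 among the called genes.

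**Figure D1:**
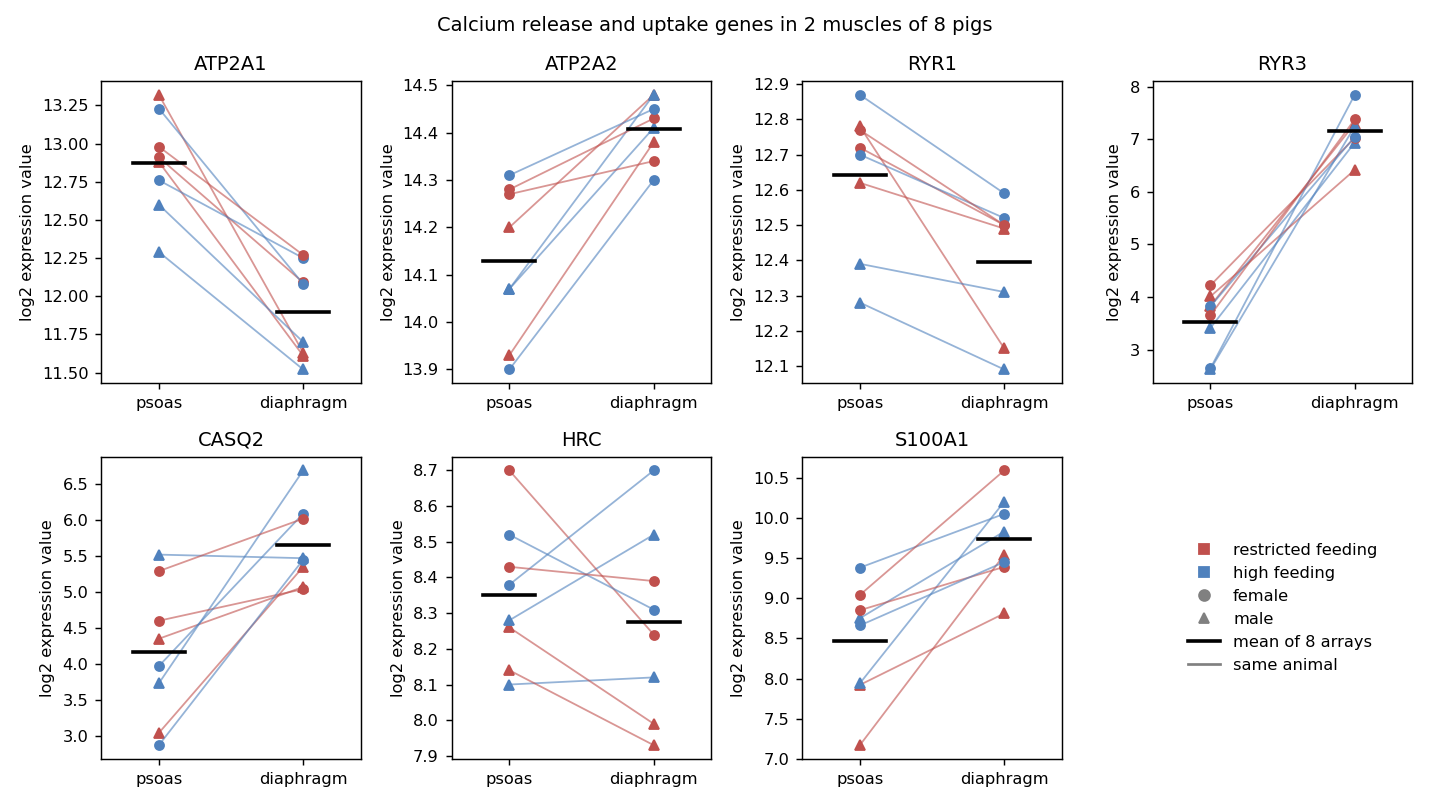
Log2 expression values of the 7 genes in psoas and diaphragm, 1 point per array, lines joining the muscles of an animal, and black bars for means of 8 arrays; each panel has its own scale. ATP2A1 and RYR3 had no overlap between the muscles, whereas the HRC lines cross in both directions.

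ATP2A1 encodes SERCA1, the calcium pump of fast fibres. Its log2 values in psoas were 12.29, 12.88, 13.32, 12.60, 12.91, 12.76, 13.23 and 12.98 in animals 1 to 8, against 11.52, 11.61, 11.63, 11.70, 12.09, 12.25, 12.08 and 12.27 in diaphragm. The lowest psoas array, of animal 1, lay just above the highest diaphragm array, of animal 8, so that the muscles did not overlap, as held for 3.72% of all tested probe sets, and psoas was higher in 8 of 8 animals. Psoas averaged 12.87 ± 0.33 and diaphragm 11.89 ± 0.31 (SD, n = 8 each), a log2 difference of 0.98 ± 0.12 (SE) or 1.97-fold (limma adjusted p = 8.31e-05). Set 2 of the gene gave 1.30 ± 0.24 (SE, adjusted p = 0.00166). Per the labels the 8 arrays of a muscle came from 8 separate animals, and each animal gave an array of both muscles, so that the SDs are spreads between animals. The SE of a muscle difference over all animals, here and below, is that of the 16-array fit without pairing. Within a feeding level it is that of the fit on 8 arrays, and for sex that of the fit on 8 animal means.

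ATP2A2 encodes SERCA2, the pump of slow fibres and heart. Its brightest probe set, set 1, had log2 values of 14.07, 14.20, 13.93, 14.07, 14.28, 14.31, 13.90 and 14.27 in psoas of animals 1 to 8, against 14.41, 14.48, 14.38, 14.48, 14.43, 14.45, 14.30 and 14.34 in diaphragm. Each animal had the lower value in psoas, although the highest psoas array (animal 6) just exceeded the lowest diaphragm array (animal 7). The means were 14.13 ± 0.16 in psoas and 14.41 ± 0.06 in diaphragm (SD, n = 8 each). The log2 difference was -0.28 ± 0.07 (SE), or 1.21-fold lower in psoas (limma adjusted p = 0.0129). These values lay near the top of the arrays' scale, whose highest values were 15.7 to 15.9 per array, where differences can be compressed. The call was lost when the mean of the gene's probe sets was used (-0.35, adjusted p = 0.116).

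The dimmer ATP2A2 probe sets varied far more between psoas samples than the brightest one did. Set 3 measured 7.50, 8.04, 6.05, 5.97, 7.32, 7.52, 5.05 and 7.90 in psoas of animals 1 to 8, against 7.42, 8.09, 7.57, 7.68, 7.37, 7.63, 7.31 and 7.90 in diaphragm. Set 2 measured 7.38, 7.62, 6.09, 6.04, 7.54, 7.45, 5.68 and 7.81 in psoas, against 7.93, 8.12, 7.63, 7.55, 7.29, 7.87, 7.47 and 7.37 in diaphragm. In both, the psoas of animals 3, 4 and 7 stood below every other array, and the other 5 psoas samples lay within the diaphragm range. The log2 difference was -0.70 ± 0.36 for set 3 and -0.70 ± 0.30 for set 2 (SE, limma adjusted p = 0.159 and 0.0976), and set 2 passed in the replicate block fit on animals (adjusted p = 0.0496). Set 4 lay near the floor, between 2.84 and 4.88, with a log2 difference of 0.27 ± 0.27 (SE, adjusted p = 0.486).

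By set 1 of each pump gene, psoas was higher for ATP2A1 and lower for ATP2A2 in every animal. The gap between these muscle differences was therefore positive in every animal by construction and adds no separate evidence. The muscle difference of ATP2A1 exceeded that of ATP2A2 by 1.26 ± 0.49 on the log2 scale (SD, n = 8 animals), with a lowest value of 0.65 and a highest of 2.14. This compares differences, since the levels of separate probe sets cannot be set against each other on this array. In bulk muscle, fewer cells of a type and less RNA per cell cannot be told apart.

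RYR1, the channel through which skeletal muscle releases its calcium and the gene whose mutations cause malignant hyperthermia in pigs and humans, was measured by 1 probe set. Its log2 values in psoas were 12.28, 12.62, 12.78, 12.39, 12.72, 12.70, 12.87 and 12.77 in animals 1 to 8, against 12.09, 12.49, 12.15, 12.31, 12.50, 12.52, 12.59 and 12.50 in diaphragm. Psoas was the higher muscle in 8 of 8 animals, but the ranges overlapped, with the psoas of animal 1 (12.28) below 6 and that of animal 4 (12.39) below 5 of the 8 diaphragm arrays. The means were 12.64 ± 0.20 in psoas and 12.39 ± 0.19 in diaphragm (SD, n = 8 each), a log2 difference of 0.25 ± 0.08 (SE) or 1.19-fold (limma adjusted p = 0.0293). The call was lost without animal 3 (adjusted p = 0.104), 5 (0.0525) or 8 (0.0586) and with no covariates (0.0844).

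RYR3 had the largest muscle difference of the 7 genes. Its log2 values in psoas were 3.41, 4.01, 3.83, 2.62, 4.22, 2.64, 3.82 and 3.65 in animals 1 to 8, against 6.94, 6.42, 7.30, 7.25, 7.03, 7.85, 7.05 and 7.38 in diaphragm. Every diaphragm array lay well above every psoas array, and 6 of the 8 psoas arrays were under the filter value of 4. The means were 3.52 ± 0.60 in psoas and 7.15 ± 0.41 in diaphragm (SD, n = 8 each), a log2 difference of -3.63 ± 0.23 (SE) or 12.4-fold (limma adjusted p = 7.99e-08). With values under 4 set to 4 the difference was -3.13, or 8.73-fold, so that the size rests in part on values near background.

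The other RYR3 probe sets were dim. Set 2 measured 2.53 to 2.82 in psoas and 4.41, 3.42, 4.76, 2.93, 2.80, 3.56, 3.38 and 4.18 in diaphragm of animals 1 to 8, with psoas lower in 8 of 8 animals, and did not pass the filter. Sets 3 and 4 lay at the floor on all 16 arrays and were not tested. The muscle difference of RYR1 exceeded that of RYR3 by 3.88 ± 0.90 (SD, n = 8 animals), ranging from 2.55 to 5.39. As psoas was higher for RYR1 and lower for RYR3 in every animal, this gap was positive by construction.

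**Figure D2:**
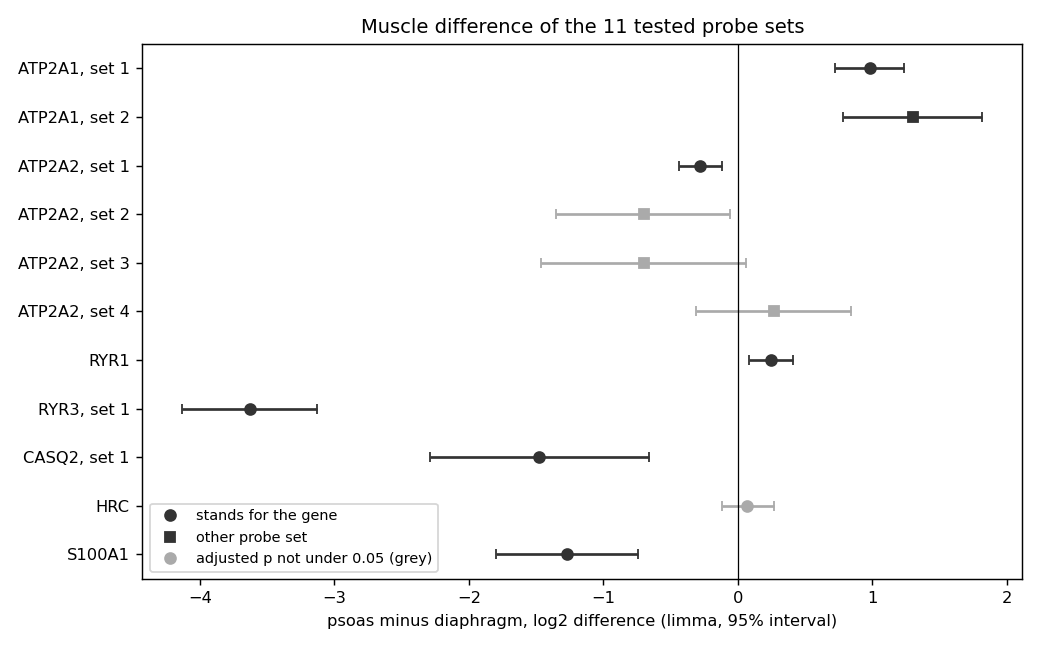
Log2 difference, psoas minus diaphragm, of the 11 tested member probe sets with 95% intervals from the fit over all tested probe sets; circles stand for the gene, squares are its other probe sets, and grey marks an adjusted p not under 0.05. Both ATP2A1 probe sets lie to the right of 0, RYR3 lies farthest left at -3.63, and the dimmer ATP2A2 probe sets have wide intervals.

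CASQ2, a calsequestrin found in slow fibres and heart, holds calcium in the lumen next to the release channels. Its log2 values in psoas were 5.52, 4.35, 3.04, 3.73, 4.60, 3.97, 2.87 and 5.29 in animals 1 to 8, against 5.47, 5.07, 5.35, 6.69, 5.04, 6.09, 5.45 and 6.02 in diaphragm. Psoas was lower in 7 of 8 animals, animal 1 being the exception, and the psoas arrays of animals 1 and 8 lay within the diaphragm range. The means were 4.17 ± 0.96 in psoas and 5.65 ± 0.57 in diaphragm (SD, n = 8 each), a log2 difference of -1.48 ± 0.38 (SE) or 2.79-fold (limma adjusted p = 0.011). Since 4 of the 8 psoas arrays were under 4, the difference was -1.18, or 2.26-fold, with those values set to 4. The gene's other probe set lay at the floor, between 2.28 and 2.33, and was not tested.

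HRC, the histidine-rich calcium binding protein of the store lumen, showed no shift between the muscles that passed the test. Its log2 values ranged from 8.10 to 8.70 in psoas (median 8.33) and from 7.93 to 8.70 in diaphragm (median 8.28). Psoas was higher in 5 animals and lower in 3, and the ranges overlapped almost fully. The log2 difference was 0.07 ± 0.09 (SE, limma adjusted p = 0.579), with a 95% interval that reached only from -0.12 to 0.27.

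S100A1 is an EF-hand calcium sensor of striated muscle that binds ryanodine receptors at the site calmodulin also uses. Its log2 values in psoas were 8.75, 7.92, 7.17, 7.94, 8.85, 9.38, 8.66 and 9.04 in animals 1 to 8, against 9.83, 8.81, 9.54, 10.20, 9.39, 10.05, 9.45 and 10.59 in diaphragm. Each animal had less in psoas, and 3 psoas arrays (animals 5, 6 and 8) exceeded the lowest diaphragm array. The means were 8.46 ± 0.73 in psoas and 9.73 ± 0.55 in diaphragm (SD, n = 8 each), a log2 difference of -1.27 ± 0.25 (SE) or 2.41-fold (limma adjusted p = 0.002).

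The low psoas arrays of the dimmer ATP2A2 probe sets and of CASQ2 were also low in slow fibre genes. The log2 of the summed level of 7 slow fibre genes was 17.24, 17.24, 16.95, 16.93, 17.38, 17.34, 16.83 and 17.31 in psoas of animals 1 to 8, against 17.27 to 17.37 in diaphragm. Animals 3, 4 and 7 were the lowest in psoas, as they were for CASQ2 (3.04, 3.73 and 2.87) and for the slow light chain MYL3 (13.53, 13.34 and 13.19, against 13.82 to 14.32 in the other psoas arrays). The slow troponin TNNI1 measured 13.88, 13.90 and 13.66 in psoas of these 3 animals, against 14.18 to 14.43 in the other psoas arrays. The 3 animals include both sexes and both feeding levels. ATP2A2 set 1 measured 13.93, 14.07 and 13.90 in psoas of animals 3, 4 and 7, with animal 1 also at 14.07. S100A1 shared this order only for animal 3, its lowest psoas array, with 7.17, 7.94 and 8.66 in animals 3, 4 and 7. Animal 2 had 7.92 in psoas, below animals 4 and 7. RYR3, near background in psoas, measured 3.83, 2.62 and 3.82 in animals 3, 4 and 7. Animals 3 and 7 lay above its psoas mean, and animal 4 gave its lowest psoas array.

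**Figure D3:**
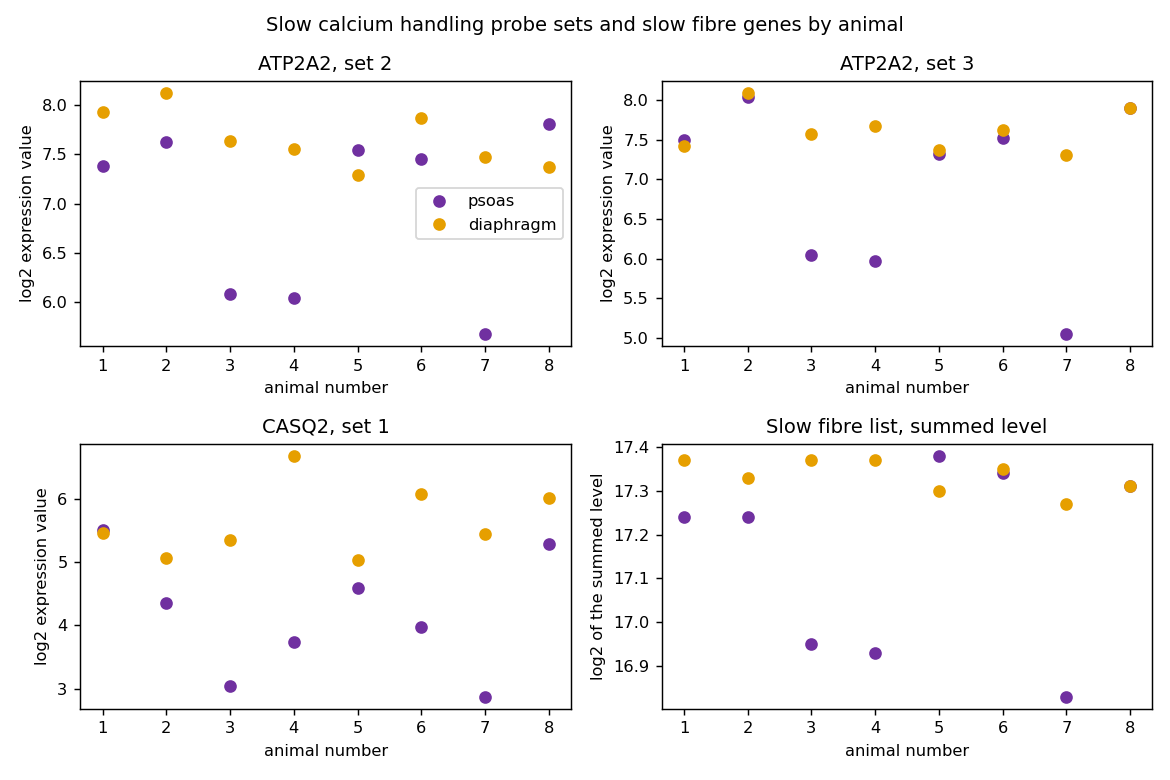
Log2 values of ATP2A2 sets 2 and 3, CASQ2 and the summed slow fibre genes in psoas and diaphragm by animal number. The psoas points of animals 3, 4 and 7 are the lowest in all 4 panels, and the diaphragm points stay within a narrower range in the ATP2A2 and slow fibre panels.

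Fibre genes differed between the muscles on the same arrays. Of 7 slow fibre genes tested, 0 were higher and 4 lower in psoas (TPM3, TNNI1, MYL2 and TNNT1), and of 7 fast fibre genes 4 were higher and 0 lower (MYH2, TPM1, TNNT3 and TNNI2). MYL3, used above, pointed the other way from the slow genes that were called, with a mean of 13.81 in psoas and 13.45 in diaphragm (0.36 ± 0.15 SE, limma adjusted p = 0.093). In restricted animals MYL3 was called higher in psoas (0.59 ± 0.15 SE, adjusted p = 0.0404). The summed fast fibre level was 17.61 to 17.81 in psoas and 17.14 to 17.43 in diaphragm. Some fibre genes lay near the top of the arrays' scale, where differences can be compressed. Among them MYH7 had means of 14.97 in psoas and 15.13 in diaphragm, and MYL2 of 14.94 in psoas and 15.16 in diaphragm. The muscle differences of the members therefore came with a shift of fibre genes, and how far the members differ within 1 fibre type was not tested.

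Markers of other cells moved with the muscles too. Summed levels (log2, range over 8 arrays) were 6.93 to 7.85 in psoas and 8.02 to 11.36 in diaphragm for 7 hepatocyte genes, all 7 of them called lower in psoas. They were 9.93 to 10.55 in psoas and 10.68 to 11.25 in diaphragm for endothelial genes (6 of 6 tested called lower in psoas). Fibroblast genes summed to 11.61 to 12.42 in psoas and 12.49 to 13.22 in diaphragm (3 of 4 called lower), and adipocyte genes to 10.07 to 10.77 in psoas and 10.56 to 11.95 in diaphragm (2 of 3 called lower). Immune genes gave 7.37 to 8.27 in psoas and 8.28 to 9.14 in diaphragm (1 of 2 called lower), the Schwann cell gene tested was called lower, and of 6 smooth muscle genes 1 was called higher and 1 lower. Of the heart markers with a probe set, NPPA, NPPB and TNNT2 were under 4 on every array, while the summed heart list measured 6.51 to 8.56 in psoas and 6.47 to 6.85 in diaphragm. The only heart gene tested, the troponin TNNI3, was called higher in psoas (0.84 ± 0.28 SE, limma adjusted p = 0.0385). The part of these other cells in the member differences was not tested.

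The actin control probe sets, a sign of RNA quality, had a log2 difference between the 3 prime and 5 prime ends of 3.29, 3.33, 3.33, 3.56, 3.71, 3.42, 3.85 and 3.07 in psoas of animals 1 to 8, against 4.28, 4.21, 4.07, 3.37, 4.33, 3.49, 3.35 and 3.36 in diaphragm. Diaphragm arrays of animals 1, 2, 3 and 5 stood above all others. Among them animals 2, 3 and 5 were restricted, and animals 1, 2 and 3 were male. In diaphragm this sign was thus tied in part to feeding and sex. Among the other animals, 4, 6, 7 and 8, only animal 8 was restricted and only animal 4 was male. In animals 4, 6, 7 and 8 alone, where 3.53% of all tested probe sets were called, 4 member probe sets were called: RYR3, ATP2A1 with both of its probe sets, and CASQ2. There ATP2A2 (-0.26, limma adjusted p = 0.299), S100A1 (-1.32, adjusted p = 0.0698) and RYR1 (adjusted p = 0.287) were no longer called, with 4 animals in place of 8. With the actin difference as a covariate RYR1 alone among the called genes lost its call (adjusted p = 0.0898).

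Split by feeding level, the muscle difference had the same sign in both groups of animals for 6 of the 7 genes, HRC being the exception. In restricted animals, where 12.1% of tested probe sets were called (6.47% higher and 5.62% lower in psoas), RYR3 (-3.11 ± 0.22, SE), ATP2A1 (1.12 ± 0.17) and S100A1 (-1.34 ± 0.31) passed with limma adjusted p of 4.72e-04, 0.0102 and 0.0338. In animals on the high feeding level, where 1.67% were called (0.680% higher and 0.985% lower in psoas), RYR3 (-4.15 ± 0.31, SE, adjusted p = 0.00101) and ATP2A1 (0.83 ± 0.14, adjusted p = 0.0357) passed, and S100A1 had -1.20 (adjusted p = 0.0873). CASQ2 had -1.05 under restriction (adjusted p = 0.102) and -1.90 on the high feeding level (adjusted p = 0.09). Each of these fits rests on 4 animals. The ATP2A1 call at high feeding was lost without any 1 of the 4 animals (adjusted p = 0.0876 to 0.215), and under restriction without animal 2 (0.0842), and the S100A1 call was lost without animal 2, 3 or 8 (adjusted p = 0.0696 to 0.163).

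Whether the muscle difference depended on feeding was tested on each animal's own difference, and 0% of the tested probe sets passed, with 696 at an unadjusted p under 0.05. The psoas minus diaphragm difference of RYR3 was 1.04 log2 units less negative in restricted than in high feeding animals, with a 95% interval from -0.03 to 2.11 (limma adjusted p = 0.807). The psoas arrays were near background, 6 of 8 of them under 4. With values under 4 set to 4, which removes nearly any difference between the psoas arrays, the value was 0.29. CASQ2 had 0.85 (-0.69 to 2.39), or 0.74 with values under 4 set to 4, HRC 0.33 (-0.05 to 0.72) and ATP2A1 0.29 (-0.20 to 0.78). S100A1 had -0.14 (-1.03 to 0.75), and RYR1 and ATP2A2 had 0.13 and 0.09. Set 2 of ATP2A1 had 0.81 (0.30 to 1.32, adjusted p = 0.761). The intervals of RYR3 and CASQ2 were wide, and a dependence of any size within them is compatible with the values of these 8 animals.

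Feeding itself gave no called member. Over the 8 animals, each the mean of its 2 arrays, 0% of tested probe sets were called between restricted and high feeding (1451 at an unadjusted p under 0.05), and 0% within psoas (1291) and within diaphragm (1101). Over animal means the RYR3 difference was 0.28 (95% interval 0.02 to 0.54, limma adjusted p = 0.363). The RYR3 psoas values were at most 4.22, so that setting values under 4 to 4 removes nearly any difference between them. With that step the difference over animal means was -0.09, and in diaphragm alone it was -0.24. The source of the difference was not tested. S100A1 had -0.37 (-0.94 to 0.20) and ATP2A1 0.16 (-0.11 to 0.43). CASQ2 had -0.13 (-0.98 to 0.72), and HRC, RYR1 and ATP2A2 lay between -0.11 and 0.10.

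Within psoas, RYR3 measured 4.01, 3.83, 4.22 and 3.65 in restricted animals, against 3.41, 2.62, 2.64 and 3.82 in animals on the high feeding level. The groups overlapped by 1 array of each, and 6 of these 8 values were under 4. The log2 difference was 0.80 (95% interval 0.13 to 1.48, limma adjusted p = 0.392), and 0.06 with values under 4 set to 4. As the highest value was 4.22, that step leaves little room for any difference. In diaphragm, where the gene was well above background, restricted animals averaged 7.03 ± 0.43 and high feeding animals 7.27 ± 0.40 (SD, n = 4 each), a difference of -0.24 (-0.80 to 0.33).

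For the other members the feeding differences within a muscle were smaller than or similar to the spread between animals. ATP2A1 in psoas averaged 13.02 ± 0.20 in restricted and 12.72 ± 0.39 in high feeding animals, and in diaphragm 11.90 ± 0.33 in restricted and 11.89 ± 0.33 in high feeding animals (SD, n = 4 each). The intervals of its difference were -0.16 to 0.76 in psoas and -0.22 to 0.24 in diaphragm, and its set 2 had 0.52 (0.01 to 1.04, limma adjusted p = 0.439) in psoas. CASQ2 in diaphragm averaged 5.37 ± 0.45 in restricted and 5.93 ± 0.59 in high feeding animals, with a difference of -0.56 (-1.34 to 0.23). HRC in diaphragm averaged 8.14 ± 0.22 in restricted and 8.41 ± 0.25 in high feeding animals, with a difference of -0.27 (-0.59 to 0.04). S100A1 had differences of -0.44 (-1.10 to 0.22) in psoas and -0.30 (-1.12 to 0.52) in diaphragm. Changes of any size within these intervals are compatible with these values.

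**Figure D4:**
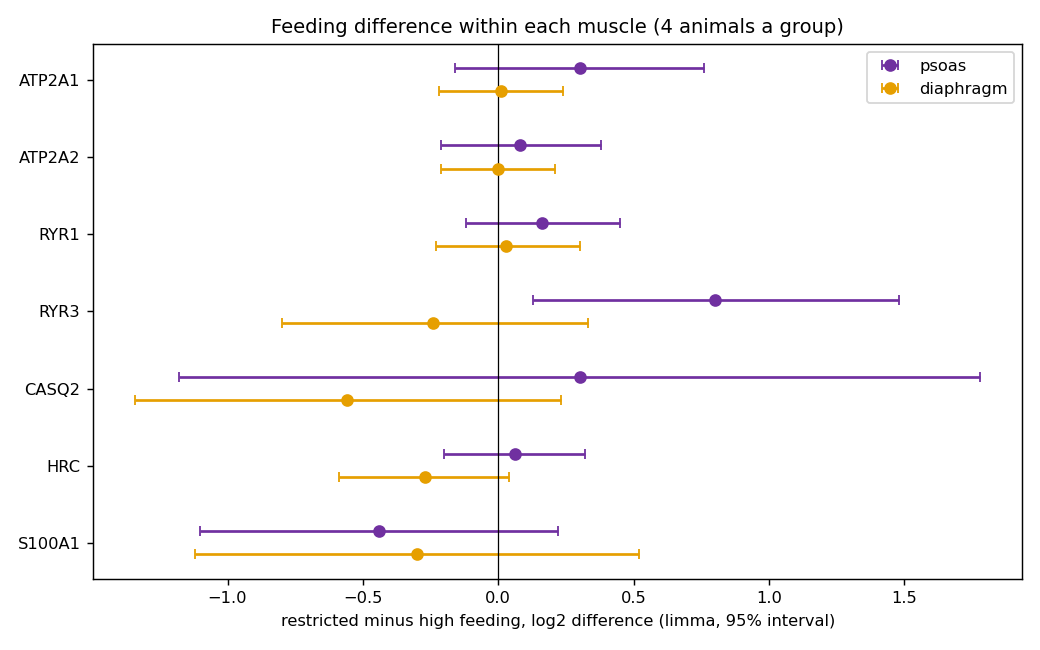
Log2 difference, restricted minus high feeding, of the 7 genes in psoas and in diaphragm with 95% intervals, 4 animals in each feeding group. All intervals but that of RYR3 in psoas include 0, and no difference passed after adjustment.

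Between the sexes 0.183% of tested probe sets were called over animal means (0.0959% higher and 0.0872% lower in females), and none was a member. By the probe set standing for each gene, the animal means of 3 of the 7 genes did not overlap between the sexes, against 4.40% of all tested probe sets. ATP2A1 animal means were 12.50 to 12.65 in females and 11.91 to 12.47 in males (log2 difference 0.38 ± 0.12 SE, limma adjusted p = 0.405). HRC lay at 8.41 to 8.54 in females and 8.03 to 8.40 in males (0.29, adjusted p = 0.418). RYR1 lay at 12.61 to 12.73 in females and 12.18 to 12.55 in males (0.26, adjusted p = 0.49). In diaphragm, where 3.77% of tested probe sets did not overlap, ATP2A1 measured 12.08 to 12.27 in females and 11.52 to 11.70 in males. RYR1 measured 12.50 to 12.59 in females and 12.09 to 12.49 in males. The actin difference was also tied in part to sex in diaphragm, as given above. Set 2 of ATP2A1 did overlap in diaphragm, with 8.39 to 9.30 in females and 7.52 to 8.57 in males. In psoas, where 5.42% did not overlap, HRC measured 8.38 to 8.70 in females and 8.10 to 8.28 in males, and the other 6 genes overlapped.

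ATP2A1, by its set 1, and RYR1 varied together from animal to animal in psoas. In psoas their values correlated at Pearson r = 0.91 (exact permutation p = 0.000992, adjusted p = 0.0417) and Spearman rho = 0.95 (exact permutation p = 0.00114, adjusted p = 0.0479), over 8 animals and adjusted over 42 member pairs, 21 in each muscle. Without the 2 animals farthest from the median of ATP2A1 the r was 0.89. In diaphragm the same pair had r = 0.76 (exact permutation p = 0.0379, adjusted p = 0.296) and rho = 0.71. No other pair passed the adjustment in either muscle, with adjusted p of 0.259 or more for Pearson r. With sex and feeding level fitted and taken out, a check added after the data were seen, the r of the remaining differences was 0.97 in psoas and 0.12 in diaphragm. The r in diaphragm, which had not passed the adjustment, was thus lower once these groups were taken out, and this change was not tested. A sex or feeding level alone holds 4 animals, fewer than the 6 taken here as the least for a correlation. Set 2 of ATP2A1 was not tested against RYR1. In psoas set 2 was highest in animal 3 (10.36) and measured 9.65 in animal 7, where RYR1 was highest (12.87).

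The genes most like each member in pattern were found over the 16 arrays after the mean of each muscle was subtracted, by Pearson r over 4571 genes, as a description of these arrays. For ATP2A1 they were LOC100512448 (0.92), PYGM, the glycogen phosphorylase of muscle (0.90), and FGF13 (0.89), and for RYR1 they were PYGM (0.88), CTCF (0.88) and FLOT2 (0.86). For ATP2A2 they were the slow light chain MYL3 (0.90), the peroxiredoxin PRDX2 (0.89) and MIPEP, a peptidase of mitochondria (0.88). CASQ2 was followed by EEF1G (0.84), CFL2 (0.84) and ACTR1B (0.80). The r of the nearest genes was lower for S100A1, with ROMO1 (0.81), EEF1AKMT1 (0.80) and HAUS8 (0.78), for HRC, with SGTA (0.83), BCKDK (0.82) and ROMO1 (0.81), and for RYR3, with PJA1 (0.75), SLC35B2 (0.71) and BCCIP (0.70). The arrays of an animal share their donor, and the highest r of so many genes is a selected value.

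Other genes of calcium handling were read from 7 lists of 87 genes, of which 48 had a probe set and 36 were tested. Of the 36, 7 were higher and 3 lower in psoas, with a median log2 difference of 0.10, against 0.04 over all genes tested. Of all 4571 genes 29.5% were called, so that the share of the lists was near that of all genes. With the animal as a block the counts were 9 and 4, where 35.9% of all genes were called. With the actin difference as a covariate they were 4 and 3, where 22.6% of all genes were called, and BIN1, TMEM38B and MYOZ1 lost their calls. In animals 4, 6, 7 and 8 alone 0 of the 36 genes were called by limma in either direction, where 3.65% of all genes were called. These 36 genes leave out partners with no tested probe set, and no list was covered in full.

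Among proteins of the triad, where surface membrane and store meet, 1 of 2 tested genes was called. BIN1, which shapes the transverse tubules, was higher in psoas by 0.35 ± 0.09 (SE, limma adjusted p = 0.0115). Of 8 partners of the release channels 2 were higher and 1 lower. CALM3, a calmodulin gene, was higher by 0.51 ± 0.10 (adjusted p = 0.00214), and TMEM38B, a cation channel of the store membrane, by 0.56 ± 0.20 (adjusted p = 0.0466). SRI, the ryanodine receptor inhibitor sorcin, was lower in psoas, with -0.46 ± 0.09 (SE, adjusted p = 0.00183).

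Of 6 pump regulators tested, 1 was called. CAMK2D, a calmodulin-dependent kinase, was higher in psoas by 0.35 ± 0.09 (SE, limma adjusted p = 0.00972). The pump inhibitors phospholamban (PLN, 0.47, adjusted p = 0.106) and sarcolipin (SLN, 0.12, adjusted p = 0.139), named here for their role and with their values known, did not pass. Of 7 lumenal proteins 0 were higher and 1 lower, the chaperone calnexin CANX with -0.25 ± 0.08 (SE, adjusted p = 0.0328). Of 3 further S100 genes 0 were higher and 1 lower in psoas. This was S100A10, a partner of annexin at membranes, with -0.50 ± 0.16 (SE, adjusted p = 0.0351).

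Calcium transport across the surface membrane and into mitochondria gave no call among 4 tested genes. STIM2, a sensor of store calcium, had 0.19 (limma adjusted p = 0.0639) and LETM1 of mitochondria had 0.28 (adjusted p = 0.185). In the calcineurin list, which reads calcium signals into gene activity, 3 of 6 tested genes were higher in psoas and 0 lower. They were the catalytic subunits PPP3CA (0.61 ± 0.13 SE, adjusted p = 0.00313) and PPP3CB (0.28 ± 0.07, adjusted p = 0.00664), and MYOZ1, a calcineurin-binding protein of the Z-disc (0.17 ± 0.06, adjusted p = 0.036). Another probe set of PPP3CB pointed the other way, with -0.29.

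**Figure D5:**
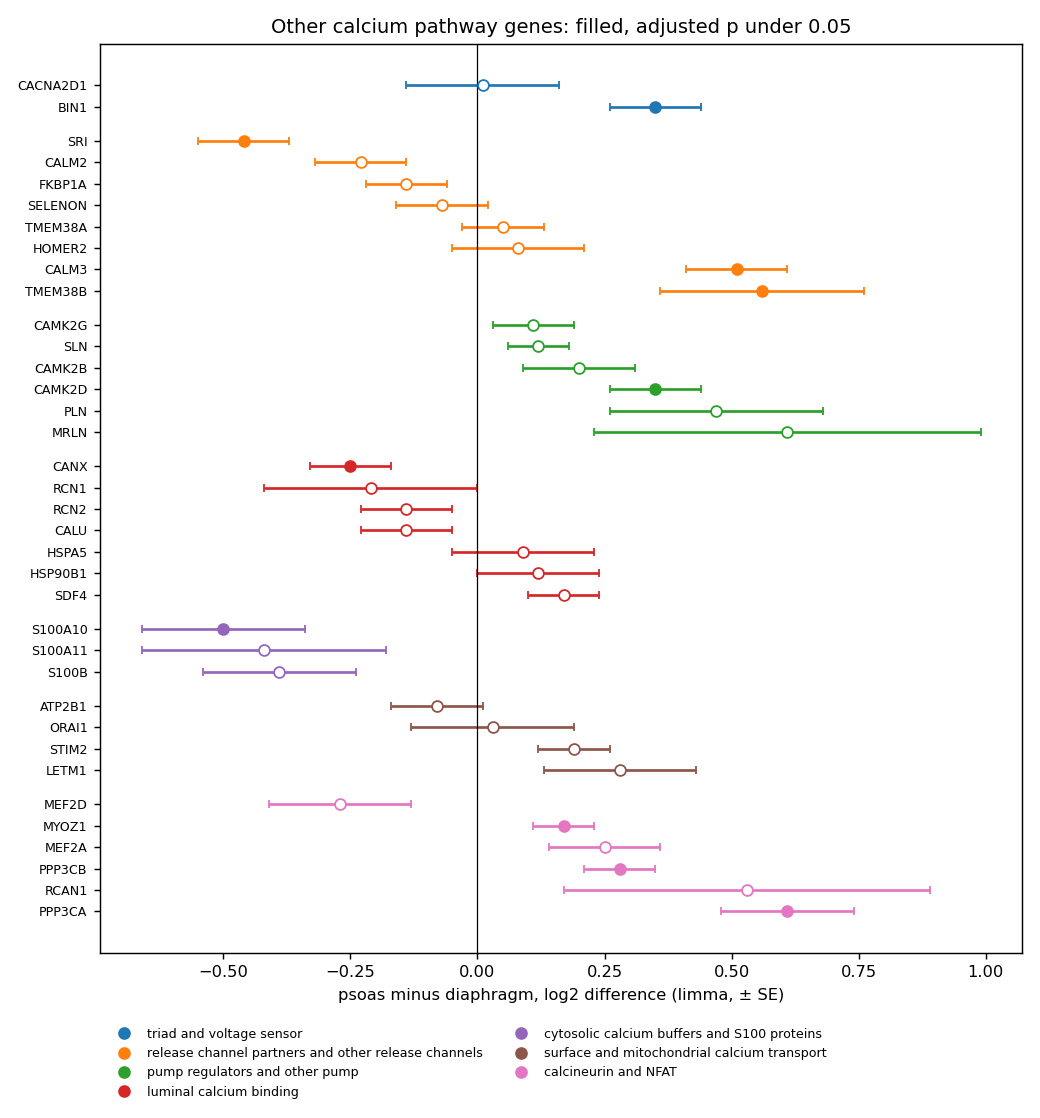
Log2 difference, psoas minus diaphragm, with its SE for the 36 tested genes of the other calcium lists, coloured by list; filled points had an adjusted p under 0.05. Filled points lie on both sides of 0, with SRI and S100A10 farthest left and PPP3CA, TMEM38B and CALM3 farthest right.

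Split by feeding, 2 of the 36 genes were higher and 0 lower in psoas of restricted animals, where of all 4571 genes 325 were higher and 247 lower. The 2 genes were PPP3CA (0.73, limma adjusted p = 0.0224) and CAMK2D (0.47, adjusted p = 0.0332). On the high feeding level 0 of the 36 were called, where of all 4571 genes 33 were higher and 52 lower in psoas. None of the 36 passed between restricted and high feeding. The smallest p over animal means belonged to HSP90B1, a chaperone of the lumen (-0.49, adjusted p = 0.278), and CAMK2B (0.32, adjusted p = 0.345). In psoas they belonged to HSP90B1 (-0.60, adjusted p = 0.321) and PPP3CA (0.46, adjusted p = 0.369), and in diaphragm to CANX (-0.27, adjusted p = 0.50) and CAMK2B (0.34, adjusted p = 0.502).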

How the data were processed

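The deposited values were log2 expression values, 1 per probe set and array, made by the authors with GCRMA per the submitters' processing notes. GCRMA corrects background from probe sequence, equalises array distributions and summarises probes, so that low values gather at a floor. Medians were 3.56 to 3.62 per array. Scanner files were not used here, and the number of arrays limits the precision.

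Of 24123 probe sets, 10099 had 1 gene symbol in the platform annotation, 198 several and 13826 none, and an update through gene identifiers altered 0 symbols. The 124 control probe sets were left out. The 11467 probe sets at or above 4 in at least 4 of 16 arrays were tested in R 4.3.3 by limma 3.58.1 (lmFit, eBayes), and p-values were adjusted over all of them by the Benjamini-Hochberg method. Every adjusted p of a gene is limma's. Muscles were compared on 16 arrays with sex and feeding as covariates. Feeding and sex were compared on animal means, feeding also within each muscle, and the dependence on feeding on each animal's muscle difference. Permutation tests used scipy 1.17.1. The fits were tested on simulated data with independent noise on each array, which held neither pairing by animal nor a floor.

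The probe set with the highest mean stood for a gene. The members and lists were chosen with earlier results of these data known. Other genes were named if called (at most 6 per list), or as the 2 of smallest p where none was, and by the 3 highest r for each member. The labels' animal numbers pair the arrays, as both come from 1 animal. Residuals of an animal's 2 arrays correlated at 0.0724 to 0.257, and the animal was a block in an alternative. Other alternatives were the filter, quantile normalization, covariates, the probe set summary and leaving out animals.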

Additional observations from a re-analysis of the deposited data

Results flagged for a closer look

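In 66 groups of 4 arrays, 2 held an array far from the others of its group, and chance alone marks about 5% of groups. Both arrays came from animal 3. Probe set 2 of ATP2A2 measured 6.09 in psoas of animal 3, against 7.54 to 7.81 in the other restricted animals. RYR1 measured 12.15 in diaphragm of animal 3, against 12.49 to 12.50 in the other restricted animals, and without animal 3 its muscle difference was not called.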

How the results depend on the processing

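Of the 3094 probe sets called between the muscles, the count fell to 405 with animals 4, 6, 7 and 8 alone, a choice made after seeing the data. The 191 called at high feeding were 74 with no filter, 598 with the animal block and 23 to 93 with 1 of their 4 animals left out. The 1386 called under restriction were 615 with no filter, 417 with the actin covariate and 147 to 1194 with 1 of their 4 animals left out. Feeding, with 0 calls, gave 0 to 1 with 1 animal left out. In diaphragm it gave 1 with no filter, 1 with the stricter filter, 2 with no covariates and 0 to 2 with 1 animal left out, and in psoas 2 with no filter and 0 to 1. The 21 sex calls were 39 with the animal block and 13 to 23 with 1 animal left out. Apart from 1 ATP2A2 probe set the block changed no member call between the muscles. Setting values under 4 to 4, also chosen after seeing the data, turned the sign of RYR3 by feeding over animals (-0.09). Signs turned also for HRC between muscles (-0.08, animals 4, 6, 7 and 8 alone), for feeding in diaphragm with the mean of probe sets (ATP2A1 -0.14, ATP2A2 0.15), and with the actin covariate for CASQ2 by feeding in psoas (-0.13) and in the dependence on feeding (-0.44). With 1 animal left out, signs of uncalled results turned too. Feeding over animals ranged from -0.46 to 0.13 for CASQ2 and -0.03 to 0.09 for ATP2A2. Feeding in diaphragm ranged from -0.03 to 0.05 for ATP2A1, -0.03 to 0.02 for ATP2A2 and -0.05 to 0.08 for RYR1. Feeding in psoas ranged from -0.17 to 0.90 for CASQ2, -0.02 to 0.16 for ATP2A2 and -0.00 to 0.11 for HRC. The dependence on feeding of S100A1 ranged from -0.47 to 0.12. At high feeding CASQ2 was called with the actin covariate (-2.07) and without animal 1 (-2.55), and ATP2A1 was not called with no filter (adjusted p = 0.0846), no covariates (0.107), the actin covariate (0.0627) or the mean of probe sets (0.0552). Under restriction S100A1 was not called with no filter (adjusted p = 0.129), no covariates (0.105) or the actin covariate (0.0564), nor ATP2A1 with the actin covariate (0.0751). CASQ2 was not tested under the stricter filter. Causes of these changes were not tested. Values under 4 limit RYR3 and CASQ2 in psoas.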
